A study of Homo sapiens with 6 samples.

Results

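The proteasome is the protease that degrades proteins tagged with ubiquitin, and the genes described here code for its subunits, its activators and the chaperones that assemble it. They were taken as every protein-coding gene whose symbol starts with PSM, then 1 letter from A to G, then a number. This gave 49 genes of the 58735 listed, of which 19951 were protein-coding. PSMC3IP carries such a symbol only because its product binds PSMC3. It is a recombination cofactor and was counted apart, which left 48 genes. PSMC3IP itself fell, from 2.61 ± 0.332 to 1.91 ± 0.234 FPKM (SD, n = 3; limma, log2 fold change -0.43, Benjamini-Hochberg adjusted p = 0.0238). It lost this call in 4 of 17 alternative fits, with limma adjusted p of up to 0.0786.

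Total RNA was sequenced from HCT116, an established human colorectal carcinoma line labelled wild type, in 2 groups of 3 libraries. One group (CTR) was the transfection control, and the sources used here give neither its sequence nor its dose. The other (miR-8485) received 50 nM of a synthetic mimic of the microRNA miR-8485 with the lipid reagent DMRIE-C, and RNA was taken at 48 h. The methods describe the libraries of a group as independent biological replicates, and the labels only number them. All results rest on 1 cell line and on 1 mimic at 1 dose and 1 time. These are bulk libraries, in which fewer cells and less RNA per cell cannot be told apart.

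The proteasome core particle, called 20S, is a barrel of stacked rings. The outer rings are built from alpha subunits (PSMA genes) and the inner rings from beta subunits (PSMB genes), some of which carry the proteolytic sites. The regulatory particle, called 19S, caps the barrel. It holds a ring of ATPases (PSMC genes) that unfold and thread the substrate, and non-ATPase subunits (PSMD genes) that bind ubiquitin, remove it or form the lid. Other caps (PSME genes) open the barrel without ATP, and cells that respond to interferon exchange the catalytic beta subunits for immunoproteasome forms. The constitutive genes are known to be transcribed together under NFE2L1, a factor that accumulates when proteasome activity is low.

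Each library held 17473874 to 18480047 fragments on listed genes, recovered from the deposited values. Of 8 markers of colon epithelium, 6 were at 1 FPKM or more in every library, led by KRT19 at 747 to 1230 FPKM, while CDX1 was at most 0.0314 and VIL1 at most 0.0639 FPKM. Their summed level was 2613 to 2838 FPKM in CTR and 1751 to 1838 in miR-8485. The keratins KRT8, KRT18 and KRT19 carried that difference (log2 fold changes of -0.62, -0.97 and -0.58), while EPCAM and CDH1 were at -0.05 each and not called, and CDX2 rose by 0.81 on the log2 scale. Of 4 fibroblast markers, the collagen gene COL1A1 was at 4.05 to 6.4 FPKM and the others at most 0.164, with sums of 4.18 to 4.51 in CTR and 6.32 to 6.5 in miR-8485. The 4 blood markers summed to at most 0.126 FPKM and the 4 endothelial markers to at most 0.312. The part of these marker differences in the results was not tested.

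Most proteasome genes were lower in the mimic libraries. Of the 44 genes that passed the filter (a mean of at least 1 FPKM), 25 fell, 3 rose and 16 did not pass the test (limma on log2(FPKM + 0.1), two-sided, adjusted p under 0.05 over all 12349 genes tested). Of all genes tested 59.6% were called in either direction. The genes that fell were 56.8% of those tested, where 30.5% of all genes tested fell, and those that rose were 6.82%, where 29.1% of all genes rose. The median log2 fold change was -0.21 over the 44 genes and -0.0041 over all genes tested. The 2 groups of libraries did not overlap for 32 of the 44 genes, or 72.7%, which is near the 66.5% of all genes tested.

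The falls were mostly small. A fall of at least 0.5 on the log2 scale was seen in 8 of the 44 genes, or 18.2%, and in 15.0% of all genes tested. The share of proteasome genes that fell thus lay further from that of all genes than the share with a large fall did, and neither gap was tested. Set against the CTR mean of each gene on the log2 scale, the median over the 44 genes was 0.048, -0.039 and -0.012 in the controls and -0.195, -0.223 and -0.242 with the mimic. All 3 mimic libraries lay below all 3 control libraries. CTR replicate 1 was the highest CTR library for 27 of the 44 genes, against 4656 of all 12349.

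FPKM divides by the library total but not by how that total is spread over gene lengths. Scaling each library to TPM, whose sum is the same in every library, moved the median of all genes to -0.12, and the share of called genes that rose went from 48.8% to 35.6%. On that scale 32 proteasome genes fell and 3 rose, where 38.3% of all genes fell and 21.2% rose. Their median was -0.33, which is -0.21 relative to the median of all genes.

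**Figure D1:**
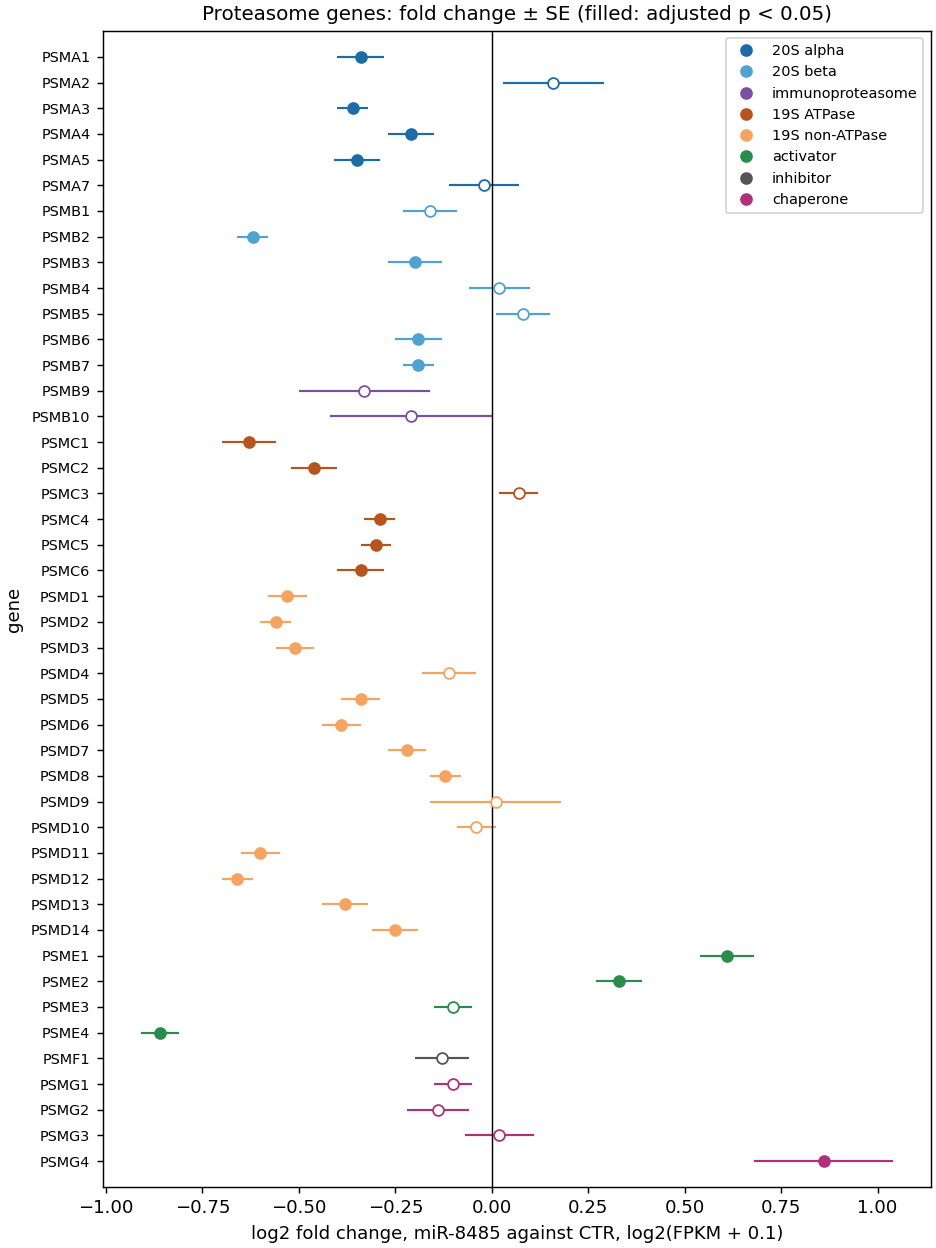
Log2 fold change of miR-8485 against CTR for the 44 tested proteasome genes, grouped by role, with points for the limma estimates and bars of 1 standard error. The 19S genes lie almost wholly to the left of 0, while PSME1 (0.61), PSME2 (0.33) and PSMG4 (0.86) stand to the right and PSME4 (-0.86) farthest to the left.

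Of the 6 alpha ring genes tested 4 fell and none rose, and those that fell stood at 0.78 to 0.86 of the control level. PSMA3, a structural alpha subunit, had the largest fall, from 50, 47.8 and 47.9 FPKM in CTR to 38.5, 37.8 and 37.3 with the mimic. Every mimic library was below every control library, by a log2 fold change of -0.36 ± 0.04 (SE; limma adjusted p = 2.3e-04). PSMA1 fell by 0.34 on the log2 scale, PSMA5 by 0.35 and PSMA4 by 0.21. PSMA4 no longer passed when miR-8485 replicate 2 (limma adjusted p = 0.0584) or 3 (0.0501) was left out, or with the trend on gene length removed (0.108).

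PSMA7, the most abundant alpha gene in the table, was at 184, 147 and 155 FPKM in CTR and 168, 155 and 153 in miR-8485. The groups overlapped, and the log2 fold change was -0.02 ± 0.09. PSMA2 was at 1.42 ± 0.11 FPKM in CTR and 1.6 ± 0.119 in miR-8485 (adjusted p = 0.325, limma). PSMA6 stayed under the filter, with 83, 57 and 97 fragments in CTR and 38, 46 and 53 in miR-8485. Its groups did not overlap, but without the filter limma gave an adjusted p of 0.171, and limma-voom on the recovered fragments of genes with at least 10 gave 0.00838. PSMA8, the alpha subunit of the testis proteasome, was at 0 in all 6 libraries.

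In the beta rings 4 of the 7 genes tested fell and none rose. PSMB2, a beta subunit without a proteolytic site, had by far the largest fall of this ring, from 57.9, 59.1 and 61.8 FPKM to 38.9, 38.1 and 39.2. The groups were far apart and the log2 fold change was -0.62 ± 0.04 (adjusted p = 2.2e-05, limma). The other 3 that fell, PSMB3, PSMB6 and PSMB7, had log2 fold changes of -0.20 to -0.19. Leaving out any of CTR replicates 1 and 3 and miR-8485 replicates 2 and 3 lost the calls of both PSMB3 and PSMB6, with adjusted p of 0.057 and 0.0653 without CTR replicate 1. PSMB1 missed the threshold (log2 fold change -0.16, adjusted p = 0.0684) but passed it in 7 of 18 alternative fits, and PSMB4 was level at 0.02 ± 0.08. PSMB11, the thymus form of the catalytic subunit, had 1 fragment in miR-8485 replicate 2, 2 in replicate 3 and none elsewhere.

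Of the 3 proteolytic subunits of the constitutive core, 2 fell by 0.19 each on the log2 scale and 1 did not pass the test, and the differences between them were not tested. PSMB5, the chymotrypsin-like subunit, was at 133, 114 and 120 FPKM in CTR and 135, 132 and 121 in miR-8485, with overlapping groups and a log2 fold change of 0.08 ± 0.07 (limma adjusted p = 0.328). PSMB6, the caspase-like subunit, was at 123, 114 and 116 FPKM and then 111, 96.3 and 103. PSMB7, the trypsin-like subunit, was at 144, 135 and 137 FPKM and then 121, 124 and 120, a log2 fold change of -0.19 ± 0.04 (adjusted p = 0.00594). PSMB2 and PSMB5 sit in the same ring, and PSMB2 went from 49% of PSMB5 in FPKM in CTR to 30% in miR-8485, as means over libraries, or from 31.7% to 19.4% per canonical transcript length.

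The immunoproteasome subunits were nearly silent in this line and none passed the main test. PSMB8, which replaces PSMB5, was at 0.111, 0.0553 and 0.0553 FPKM in CTR and 0.0929, 0.0922 and 0.0526 in miR-8485, or 3 to 6 fragments a library, and was under the filter. PSMB9, which replaces PSMB6, was at 1.34, 1.13 and 1.24 FPKM and then 0.997, 0.882 and 1.01. The PSMB9 groups did not overlap, and the log2 fold change was -0.33 ± 0.17 (adjusted p = 0.130, limma). PSMB9 passed in 1 of 17 alternative fits, the one without a variance trend (limma adjusted p = 0.0146). PSMB10, which replaces PSMB7, was at 1.74, 1.40 and 1.16 FPKM and then 1.47, 0.985 and 1.22, with overlapping groups (adjusted p = 0.412). In CTR, PSMB8 stood at 0.0593% of PSMB5, PSMB9 at 1.05% of PSMB6 and PSMB10 at 1.03% of PSMB7. In miR-8485 these ratios were 0.0606%, 0.933% and 1.01%. They rest on the deposited gene lengths, and per length of the canonical transcript they were 0.0936%, 1.81% and 1.08% in CTR. PSMB10 shares 56.1% of its transcript with a readthrough gene, and whether that lowered its count was not tested.

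The 19S cap had the most genes called, with 16 of 20 lower and none higher, and a median log2 fold change of -0.34, where the 13 tested genes of the constitutive core had a median of -0.19. The difference between caps and core was not tested, and these medians take no account of gene length. With the trend on gene length removed, the short beta genes PSMB3, PSMB6 and PSMB7 went to -0.42, -0.39 and -0.35. Cap genes moved either way on that scale, as PSMC6 went from -0.34 to -0.26 and PSMC4 from -0.29 to -0.39. In the ATPase ring 5 of 6 genes fell. PSMC1 had the largest fall, from 14.1, 13.4 and 15.9 FPKM to 9.26, 9.76 and 8.85. No mimic library reached the lowest control library, and the log2 fold change was -0.63 ± 0.07 (adjusted p = 2.8e-04, limma). PSMC2 followed at -0.46, and PSMC4, PSMC5 and PSMC6 lay between -0.34 and -0.29. PSMC3 was the exception in this ring, at 78.6, 75.1 and 74.8 FPKM in CTR and 83.9, 77.3 and 78.3 in miR-8485 (log2 fold change 0.07 ± 0.05, adjusted p = 0.249). It turned to -0.05 on the TPM scale.

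Of the 14 non-ATPase genes, 11 fell and the median was -0.36. PSMD12, a lid subunit, had the largest fall, from 48.3, 46.3 and 48.2 FPKM to 29.9, 30.7 and 29.8, or 0.63-fold of the control. Libraries within a group differed by little beside the gap between groups (log2 fold change -0.66 ± 0.04, limma adjusted p = 1.4e-05). PSMD11, another lid subunit, went from 25.4, 27.4 and 26.4 FPKM to 16.6, 17.6 and 18.2 (-0.60 ± 0.05). PSMD2, a scaffold at the base of the cap, went from 104, 103 and 111 FPKM to 72.5, 72.2 and 69.7 (-0.56 ± 0.04). For both genes the groups were clearly apart. PSMD1, the other large scaffold of the base, and PSMD3 in the lid fell by 0.53 and 0.51 on the log2 scale.

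Smaller falls were seen for PSMD6 (-0.39), PSMD13 (-0.38), PSMD5 (-0.34), PSMD14 (-0.25) and PSMD7 (-0.22). PSMD14 is the lid enzyme that cleaves ubiquitin from substrates and PSMD7 its partner, while PSMD5 is an assembly chaperone of the base. PSMD8 passed only narrowly (-0.12 ± 0.04, adjusted p = 0.0483, limma) and lost the call in 10 of 18 alternatives, among them those without CTR replicate 2 (0.115) or 3 (0.132) or miR-8485 replicate 2 (0.112) or 3 (0.168). The 3 genes not called were PSMD4, PSMD9 and PSMD10. PSMD4, a ubiquitin receptor, was at -0.11 ± 0.07. PSMD9 and PSMD10, both chaperones of the base, were at 0.01 ± 0.17 and -0.04 ± 0.05.

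Summed over a subcomplex, the level per length changed most in the non-ATPase genes. The 14 non-ATPase genes summed to 527, 513 and 528 FPKM in CTR and 408, 405 and 398 in miR-8485, a change of -22.7%. The 6 ATPase genes summed to 268, 259 and 265 FPKM and then 233, 223 and 222, a change of -14.3%. For both parts of the cap the groups did not overlap and were separated by more than the range within either group. The beta ring sum changed by -9.2%, also without overlap but by a narrow margin, since CTR replicate 2 stood at 842 FPKM and miR-8485 replicate 1 at 835. The alpha ring sum changed by -9.7%, the sum of the weakly expressed immunoproteasome genes by -17.4% and that of the chaperones by -3.2%, all with overlapping groups. On the TPM scale these 3 sums changed by -16.8%, -24.0% and -10.8%, and their groups did not overlap. Over all 48 genes the sum was 2184 ± 96.2 FPKM in CTR and 1936 ± 53.6 in miR-8485, a change of -11.3% in FPKM and of -18.2% in TPM.

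**Figure D2:**
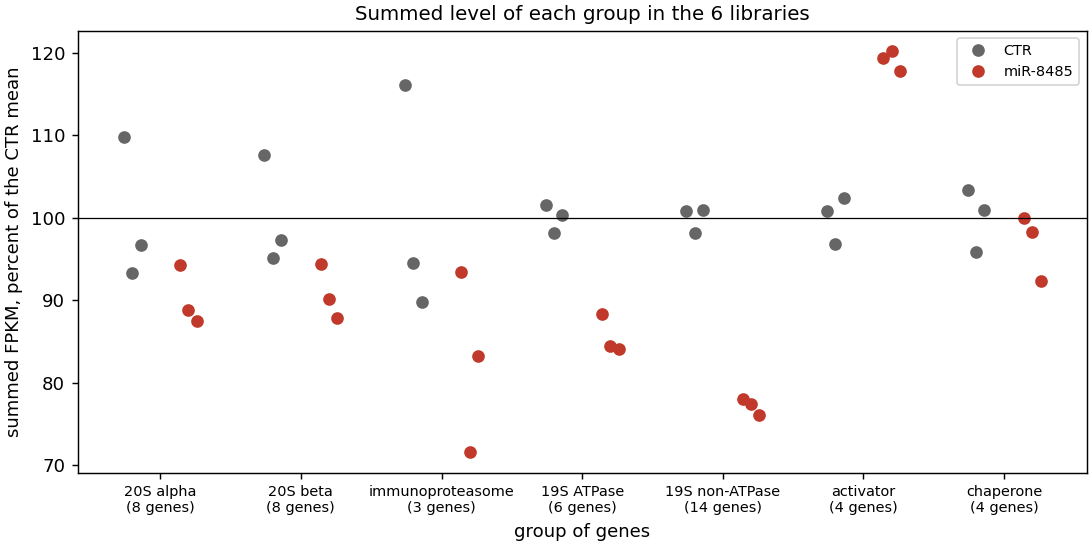
Summed FPKM of each subcomplex in every library, as a percent of the mean of the CTR libraries and points for the 3 CTR (grey) and 3 miR-8485 (red) libraries. The non-ATPase sum changed by -22.7% and the ATPase sum by -14.3%, the activator sum rose above every control library (19%), and the alpha ring, immunoproteasome and chaperone sums overlapped between groups on this scale.

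The activators moved in opposite directions. PSME1 and PSME2 code for the subunits of PA28 alpha-beta, a cap that favours the production of antigenic peptides, and both rose. PSME1 went from 52.1, 44.4 and 51.8 FPKM to 74.9, 76.8 and 74.3, a log2 fold change of 0.61 ± 0.07 (adjusted p = 1.9e-04, limma). PSME2 went from 22.5, 21.9 and 20.8 FPKM to 29.7, 26.5 and 26.1, a log2 fold change of 0.33 ± 0.06 (adjusted p = 0.00262). Neither gene had a mimic library within the range of its control libraries. PSME1 stood at 231%, 203% and 249% of PSME2 in CTR and at 252%, 290% and 285% in miR-8485, with no overlap between groups. The size of this ratio depends on the length used, since per canonical transcript length PSME1 stood at 93% of PSME2 in CTR and 113% in miR-8485.

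PSME4 codes for PA200, a nuclear cap linked to DNA repair and histone turnover, and had the largest fall of all 48 genes. It went from 11.7, 12.2 and 11.9 FPKM to 6.60, 6.66 and 6.35, or 0.55-fold of the control. The libraries of each group lay within a narrow band and the bands were far apart (log2 fold change -0.86 ± 0.05, limma adjusted p = 1.1e-05). PSME3, the subunit of the nuclear cap PA28 gamma, was at 39, 41.5 and 42.6 FPKM and then 37.1, 39 and 39. Its lowest control and highest mimic libraries were nearly level, and it did not pass the test (-0.10 ± 0.05, adjusted p = 0.124), although it did without CTR replicate 1 (adjusted p = 0.0342). PSME4 went from 29.9%, 29.3% and 28% of PSME3 to 17.8%, 17.1% and 16.3%, with no overlap between groups. The summed activators went from 124 ± 3.8 to 148 ± 1.71 FPKM, mainly through PSME1, a change of 19% in FPKM and of 9.8% in TPM.

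PSMF1, the inhibitor PI31, was at 19.7, 23.1 and 23.5 FPKM in CTR and 19.7, 20.3 and 20.5 in miR-8485. CTR replicate 1 lay with the mimic libraries, and the log2 fold change of -0.13 ± 0.07 did not pass the test (limma adjusted p = 0.165). Without that library it was -0.21 and passed (adjusted p = 0.00603).

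**Figure D3:**
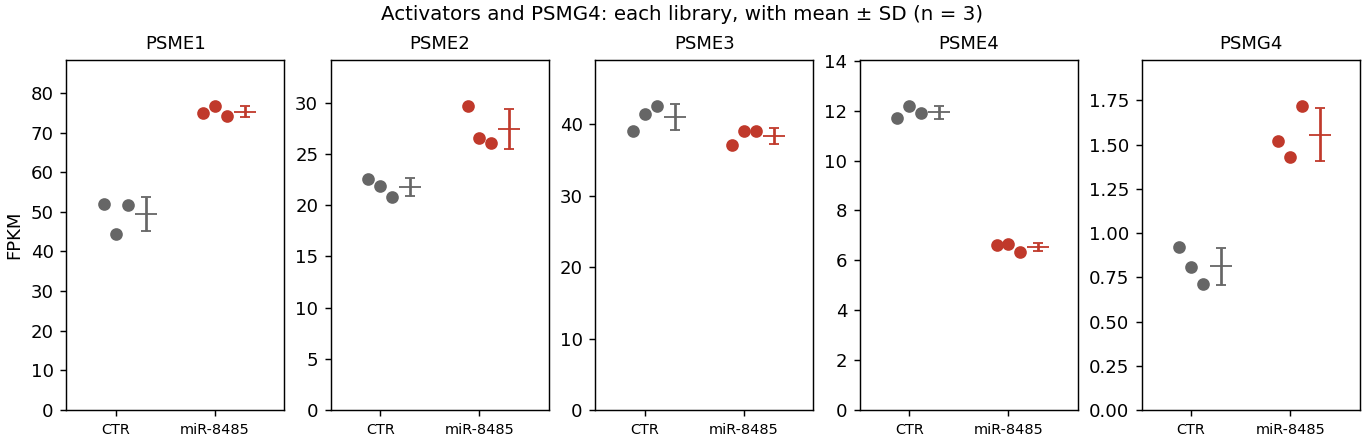
FPKM of the 4 activator genes and of the chaperone gene PSMG4 in each library, with the mean and SD of each group (n = 3) beside the points. PSME1 rose from a mean of 49.4 to 75.3 and PSME2 from 21.7 to 27.4, PSME4 fell from 11.9 to 6.54, PSME3 lay between 37.1 and 42.6 in all libraries, and PSMG4 rose from 0.813 to 1.56.

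The PSMG chaperones pair the alpha subunits into the first ring of the core. PSMG1 was at 20.6, 19.4 and 21.9 FPKM in CTR and 19, 19.6 and 19.1 in miR-8485. PSMG2, its partner, was at 17.2, 18.8 and 20.4 FPKM and then 17.8, 17.6 and 15.9. Both had overlapping groups and adjusted p of 0.149 and 0.155 (limma). PSMG2 passed without CTR replicate 1 (-0.20, adjusted p = 0.0415). PSMG3 was at 31.4, 25.9 and 25.3 FPKM and then 29.5, 27.9 and 25.9, also with overlapping groups (log2 fold change 0.02 ± 0.09).

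PSMG4, the partner of PSMG3, was the only chaperone called and it rose. It went from 0.921, 0.807 and 0.711 FPKM to 1.52, 1.43 and 1.72, a log2 fold change of 0.86 ± 0.18 (adjusted p = 0.00419, limma). Its CTR mean of 0.813 FPKM lay under the filter, so it was tested only through the group where it was higher. The values rest on 134 to 173 fragments a library in CTR and 270 to 341 in miR-8485, and the log2 fold change ran from 0.50 with a pseudocount of 1 to 0.99 with the length trend removed. It was called in every alternative that tested it, including the fit with no filter (0.86, limma adjusted p = 0.00909). The table gives PSMG4 a length of 10418 bases, where the GENCODE 44 canonical transcript has 785. The gene span overlaps those of SLC22A23 and TUBB2B, and which transcript the fragments came from was not tested.

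Subunits of one particle are needed in fixed proportion, but their listed levels were not alike. Over 31 constitutive subunit genes the mean CTR level ran from 0.672 FPKM (PSMA6) to 195 FPKM (PSMB3), a ratio of 290, around a median of 48.6. The lowest genes, PSMA6 and PSMA2, share exons with other listed genes, and so does PSMA1. Readthrough genes on the same strand cover 100% of the canonical transcript of PSMA2 (with AC010132.3), 81.4% of PSMA6 (with AL121594.1) and 67.0% of PSMA1 (with AC018523.2). These readthrough genes were themselves at no more than 0.043 FPKM. A counter that discards fragments lying on exons of more than 1 gene would leave these genes low, but the counting setting is not given in the sources used here and its part in these levels was not tested. Without these 3 genes, 28 subunits ran from 11.7 (PSMD6) to 195 FPKM, a ratio of 16.6, and per length of the canonical transcript from 20.3 (PSMC1) to 309 (PSMB1), a ratio of 15.2.

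Exon sharing also touched PSMB10 (56.1%, with AC040162.1 at up to 0.646 FPKM) and PSMD9 (28.8%, with AC069503.2). On the opposite strand, NRDE2 overlaps 83.2% of PSMC1 at a mean of 1.06 FPKM, AC009120.2 overlaps 51.6% of PSMD7 at 0.845 FPKM, and FTSJ3 overlaps 13.7% of PSMC5 at 25.3 FPKM. MLX, at a mean of 10.9 FPKM, overlaps 57.2% of PSMC3IP, which was itself at 2.26 FPKM and was counted apart. The sources used here do not say whether the counting used strand, so fragments of these pairs cannot be told apart. When genes with at least 50% of the transcript shared on the same strand were left out, 24 of 41 fell. PSMG4, PSME1 and PSME2, the genes that rose, share 0.1% or less of the canonical transcript on the same strand. For PSMG4 that transcript has 785 bases against a listed length of 10418, and sharing over the rest was not measured.

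**Figure D4:**
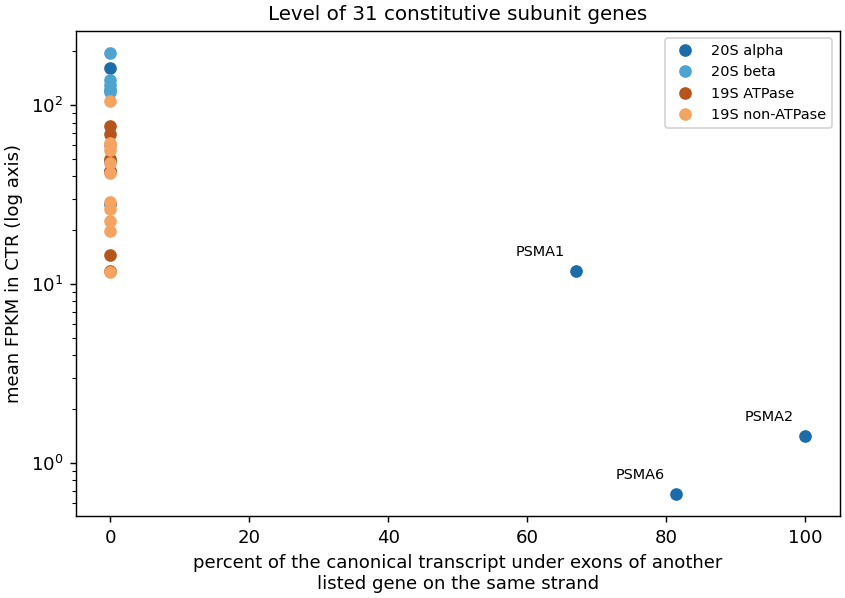
Mean CTR level (FPKM, log axis) of 31 constitutive subunit genes against the percent of the canonical transcript that lies under exons of another listed gene on the same strand. The 28 genes at 0% lie at 11.7 to 195 FPKM, PSMA1 (67.0% shared) lies at their lower end at 11.9, and PSMA2 (100%) and PSMA6 (81.4%) lie below them.

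The mimic pairs with messenger RNAs through its seed, bases 2 to 8, which read ACACACA, so a site paired over the whole seed reads TGTGTGT. This word was sought in the 3' UTR of the GENCODE 44 canonical transcript (GRCh38, sense strand only, overlapping copies counted once each). It lay in 8 of 44 tested proteasome genes, or 18.2%, and in 28.9% of 10686 tested genes with such a UTR. The proteasome genes have short 3' UTRs, with a median of 352 bases against 1286. Of the 8 genes with the word 5 fell and none rose, with a median log2 fold change of -0.32, and of the 36 without it 20 fell and 3 rose, with a median of -0.20. Among all tested genes with a 3' UTR, 44.5% of those with the word fell and 19.6% rose (median -0.16). Of those without it 29.2% fell and 31.9% rose (median 0.02). The genes with and without the word were not matched for the length of the UTR or of the gene. Whether the word had a part in the falls was not tested.

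The 5 genes that fell and hold the word are shown with the surrounding bases, the word in capitals, to give the possible pairing sites among the falls. PSME4 (chr2:53864898-53864926, minus strand), PSMB2 (chr1:35601800-35601828, minus strand) and PSMD11 (chr17:32480771-32480799, plus strand) include the largest falls of the activators and of the beta ring. PSMD5 (chr9:120816513-120816541, minus strand) has a longer run of the same repeat, and PSMC5 lies at chr17:63831971-63831999 on the plus strand.
PSME4: aatctgattgtTGTGTGTattcaatgtgt
PSMB2: tcttgaccagaTGTGTGTttcagaatgtt
PSMD11: cctttggagagTGTGTGTggcgggagagt
PSMD5: ctctgtttttTGTGTGTGTttccatgctg
PSMC5: tggacagccttTGTGTGTatctctccaat
The word also lay in PSMD4, PSMD9 and PSME3, which did not pass the test, and in PSMA6, which was under the filter. PSMD12, PSMC1, PSMD2, PSMD1 and PSMD3, each with a fall of more than 0.5 on the log2 scale, do not hold it. A match is a description of these letters and not a measured site.

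NFE2L1 and related factors bind antioxidant response elements, whose core was searched as TGACNNNGC on both strands of RefSeq promoters (GRCh38.p14, 250 bases before to 50 after the gene start). Of 48 genes 42 had a promoter in the table, and 13 of these, or 31%, held the word, against 13.6% of all 27305 promoters and 15.4% of those of tested genes. The CCAAT word, searched on both strands, lay in 45.2% of the proteasome promoters and in 35.7% of all promoters. Of the 13 tested genes with TGACNNNGC 7 fell and 2 rose, with a median log2 fold change of -0.29, and of the 25 tested genes without it 16 fell and 1 rose, with a median of -0.25.

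The stretches around the word are shown for the 4 largest falls and both rises among these genes, since the word is held by genes that moved either way. They are printed in the direction of the gene, with the word in capitals, and PSME4 and the downstream stretch of PSMD3 hold it on the other strand. Their positions are chr2:53971009-53971037 for PSME4, chr17:67366724-67366752 for PSMD12, chr2:231056896-231056916 for PSMD1, chr17:39980760-39980788 and chr17:39980830-39980856 for PSMD3, chr14:24136098-24136126 for PSME1 and chr14:24146767-24146795 for PSME2.
PSME4: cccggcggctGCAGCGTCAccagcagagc
PSMD12: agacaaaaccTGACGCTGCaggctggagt
PSMD1: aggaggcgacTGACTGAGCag
PSMD3, upstream: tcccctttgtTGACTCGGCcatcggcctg
PSMD3, downstream: gtttgcagctGCTCCGTCAtcgtgcgg
PSME1: atggcagggcTGACCCCGCctcctccatc
PSME2: ccctggactgTGACCCAGCcagcaccgcc
The PA28 genes PSME1 and PSME2 rose and PSME4, PSMD12, PSMD1 and PSMD3 fell. These genes were picked by their direction, and whether the word had a part in the changes was not tested.

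The median fall was larger among proteasome genes of 3000 bases or more than among shorter ones, and all tested genes leaned the same way. PSMG4, the longest by deposited length at 10418 bases, had the largest rise (0.86), and it passed the filter only through the miR-8485 group. The deposited lengths can be far from that of the canonical transcript, as for PSMG4 with 10418 against 785 bases and PSMD6 with 9123 against 1362. For such genes the length class is uncertain. Among genes under 2000 bases in the deposited length, 3 of 8 proteasome genes fell and the median was -0.10. From 2000 to 3000 bases 2 of 7 fell, from 3000 to 5000 bases 9 of 13 fell with a median of -0.34, and from 5000 bases on 11 of 16 fell, also with a median of -0.34. Of all tested genes 13.7%, 26.1%, 32.1% and 37.5% fell in these 4 classes, from the shortest to the longest, so the share in the class of 2000 to 3000 bases (28.6% of the proteasome genes) was near that of all genes. The medians of all tested genes were 0.21, 0.08, 0.01 and -0.09, so the proteasome median lay below that of all genes in each class. Across the 44 genes, which are no independent replicates and share the same libraries, the log2 fold change and the log length had a Pearson r of -0.28 and a Spearman rho of -0.44, and across all tested genes r was -0.18 and rho -0.21. With a smooth trend on length removed, 28 proteasome genes fell, where 30.0% of all genes fell, and the median was -0.28. Whether length had a part in the falls beyond this was not tested.

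**Figure D5:**
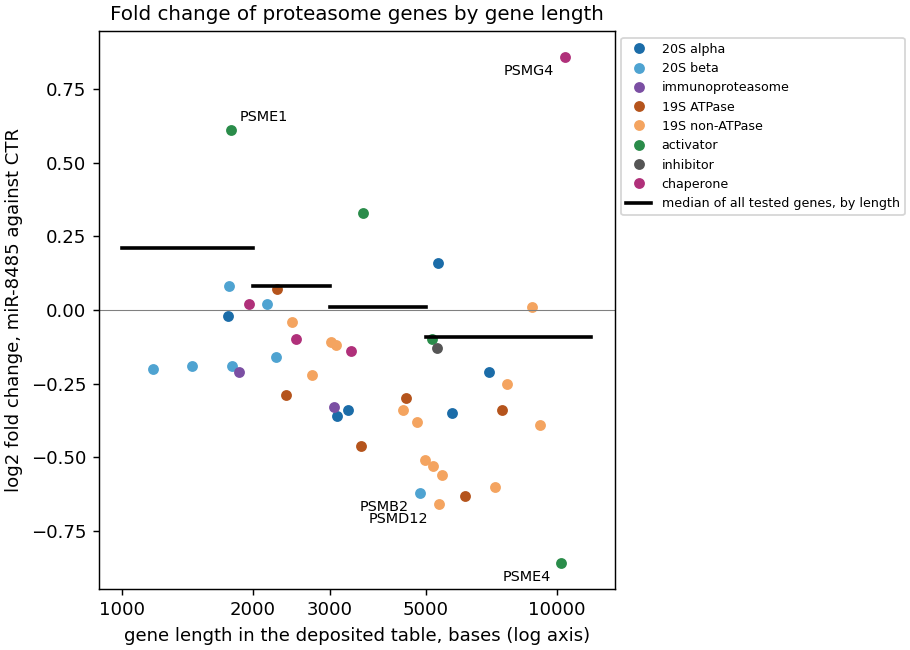
Log2 fold change of the 44 tested proteasome genes against the gene length in the deposited table (log axis), coloured by role, with black bars at the median of all tested genes in 4 length classes. Most proteasome genes lie below the bar of their class, and the medians of all genes go from 0.21 in the shortest class to -0.09 in the longest.

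The genes that work with the proteasome but fall outside the naming rule were taken from a list of 36 genes, all of them tested. On this list 20 fell and 5 rose, with a median log2 fold change of -0.24. Among all genes tested 30.5% fell and 29.1% rose, and the gap to the list or to its parts was not tested. Among 8 further subunits and assembly factors 4 fell and 1 rose. ADRM1, a ubiquitin receptor of the cap, went from 60.4, 59.2 and 64.6 FPKM to 49.7, 43.7 and 48.9 (-0.37, limma adjusted p = 0.00151). POMP, the chaperone that completes the core, went from 120, 99.4 and 111 FPKM to 88.0, 90.4 and 90.4 (-0.29, adjusted p = 0.00729). Both had groups that did not overlap. SEM1, the small lid subunit, was at 6.25, 4.8 and 5.15 FPKM and then 5.84, 5.21 and 4.46, with overlapping groups (adjusted p = 0.702).

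Of 8 genes that act on proteasome transcription, 5 fell and none rose, where 30.5% of all genes tested fell and 29.1% rose. NFE2L1 went from 26.3, 28.8 and 30.5 FPKM to 23.4, 24.0 and 24.7 (-0.24, adjusted p = 0.0103, limma), with no overlap. NFE2L2, the oxidative stress factor, was at 19.5, 19.4 and 19.8 FPKM and then 17.9, 18.8 and 18.4 (-0.09, adjusted p = 0.0965), and passed on the TPM scale (0.0137). MAFG, a small MAF protein that pairs with these factors on DNA, had the largest fall of this group, from 15.5, 16.6 and 17.4 FPKM to 9.39, 7.82 and 9.73 (-0.88, adjusted p = 1.4e-04). The fall of NFE2L1 was smaller than that of MAFG, a difference that was not tested, and these are RNA levels and not protein.

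Among ubiquitin receptors and the VCP unfoldase with its cofactors, 8 of 10 genes fell and none rose. For these counts and those below, 30.5% of all genes tested fell and 29.1% rose. UBQLN1, a shuttle that carries ubiquitinated proteins to the proteasome, had the largest fall of the list, from 33.2, 33.0 and 34.4 FPKM to 16.5, 18.7 and 18.5 (-0.90, adjusted p = 1.8e-05, limma). Of 4 deubiquitinases and ligases bound to the proteasome 1 fell and none rose. The 6 genes of ubiquitin and its E1 enzymes were split, with 2 falls and 4 rises. RPS27A, which codes for ubiquitin fused to a ribosomal protein, rose from 310, 257 and 254 FPKM to 372, 372 and 358 (0.43). No mimic library overlapped the control libraries.

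Because PSME1, PSME2 and the immunoproteasome genes respond to interferon, 12 genes of interferon response and antigen presentation were set beside them. Of the 10 tested, 2 rose and 3 fell, with a median log2 fold change of -0.03. Of all genes tested 29.1% rose and 30.5% fell. HLA-B, a class I heavy chain, rose by 0.27 on the log2 scale. The falls were TAPBP, which loads peptides onto class I molecules (-0.67), IRF1 (-0.25) and HLA-E (-0.14). TAP1, a peptide transporter, was at 0.11 and not called, and NLRC5 and ERAP1 were under the filter. Whether an interferon response had a part in the rise of PSME1 and PSME2 was not tested.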

How the data were processed

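Total RNA of HCT116 cells was sequenced in 3 CTR and 3 miR-8485 libraries. The authors aligned reads to hg38 with HISAT2 2.0.5, counted with featureCounts 1.5.0-p3, per the labels and methods, and deposited FPKM per gene with gene lengths. The annotation, strandedness and overlap setting are not given in the sources used here. Deposited FPKM times length gave whole fragments for 100% of values (tolerance 0.01).

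Genes averaging 1 FPKM or more over the libraries were tested in limma 3.58.1 (R 4.3.3) on log2(FPKM + 0.1), with a variance trend, group as the only term and Benjamini-Hochberg adjustment over 12349 genes at 0.05. A fold change on this scale understates that of low genes. Alternatives were other pseudocounts and filters, TPM, median-of-ratios, quantile, removal of a length trend, a replicate block, voom on recovered fragments and each library left out. Scripts were tested on simulated data. Transcripts came from GENCODE 44 (GRCh38) and promoters from RefSeq. Python 3.11.15 with pandas 2.3.3 was used otherwise.

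The genes and lists were chosen with earlier results of these data known. Values in every library are given for the largest fall and rise of each subcomplex, the catalytic, immunoproteasome, activator, inhibitor and chaperone genes, and of the partner list the 2 largest falls and rises with NFE2L1, NFE2L2, POMP, ADRM1 and SEM1. PSMA7, PSMC3, PSMD2 and PSMD11 were added after their values were seen. A few genes of the other lists enter the counts and are not reported singly here.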

Additional observations from a re-analysis of the deposited data

How the results depend on the processing

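Of the 28 proteasome genes called, 24 were called under each of the 18 alternatives that tested them (PSMG4 was under the filter at a mean FPKM of at least 5) and none of the 28 changed sign. PSMA4, PSMB3, PSMB6 and PSMD8 lost the call under at least 1. Of the 16 not called, 9 passed under at least 1. The median over the members was -0.33 on the TPM scale and -0.28 with the length trend removed. With a mean FPKM of at least 5, 4720 of all genes were called, from fewer genes tested. On the TPM scale 2 partner genes rose in place of 5, and the cause was not tested. The number of members that fell was 32 on that scale, 22 with no filter and 27 with voom on genes of at least 10 fragments, which was chosen after seeing the data. Among all genes 4725 of 12349 fell in TPM, 3598 of 31768 with no filter and 4511 of 21396 with that voom fit. These settings test different numbers of genes, so their counts are not directly comparable. With each library left out, 21 to 26 members fell, 3 rose, the median was -0.23 to -0.20, 6560 to 7224 genes were called, 19 to 21 partner genes fell and 5 to 6 rose.

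Genes that changed sign were not called in the main test. PSMB4 was at -0.09 (TPM and length trend) and -0.06 (quantile), PSMB5 at -0.03 (TPM), -0.08 (length) and -0.01 (quantile), PSMC3 at -0.05 (TPM) and -0.04 (length), PSMD9 at -0.10 (TPM) and -0.05 (quantile), and PSMG3 at -0.10 (TPM) and -0.12 (length). DDI2 was at 0.07, SEM1 at 0.08 and UFD1 at 0.02 with the length trend removed, and UBE3C at -0.07 and UCHL5 at -0.02 in TPM. With libraries left out, PSMA7 ran from -0.09 to 0.07, PSMB4 from -0.02 to 0.11, PSMD9 from -0.06 to 0.10, PSMG3 from -0.04 to 0.11, and SEM1 from -0.15 to 0.05.

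The sources used here do not say whether the replicate numbers pair the libraries. The deviations of same-numbered libraries correlated at 0.067, 0.033 and -0.064, and those of the other pairs at -0.094 to 0.061. With the replicate block PSMD8 lost its call (adjusted p = 0.0721, limma) and PSMB1 gained one (0.0361), so that again 25 members fell and 3 rose, TXNL1 of the partner list lost its call (0.0605), no other call of a member changed, the median was -0.21, and 7388 of all genes were called against 7362.

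With 3 libraries a group, the standard error of a log2 fold change was 0.04 to 0.21 over the members, and the tested members held 33 to 10922 fragments a library.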

Other observations

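The table also lists 37 genes that are not protein-coding but carry proteasome symbols, mostly processed pseudogenes and antisense RNAs. Only 3 of them passed the filter. PSMA3-AS1, an antisense RNA at the PSMA3 locus, was at 2.53, 2.55 and 2.20 FPKM in CTR and 2.86, 2.86 and 3.12 in miR-8485, and rose (log2 fold change 0.27 ± 0.09, limma adjusted p = 0.0361) where PSMA3 fell. The call was lost on the TPM scale (adjusted p = 0.215). Without knowledge of strand in the counting, fragments of the 2 genes where they overlap cannot be told apart. The pseudogenes PSMC1P1 and PSMA6P1 held 39 to 73 and 8 to 22 fragments a library and did not pass the test (adjusted p = 0.306 and 0.926, limma), and their close likeness to PSMC1 and PSMA6 makes their fragments uncertain.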
